A study of Mus musculus with 2 samples.

Results

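The splice forms of 7 protein-coding genes were followed here: Khk, Slc37a4, Fpgs, Fggy, Prlr, Dpy19l1 and Ttc19. They were chosen because the shares of their forms lay far apart between the 2 libraries of the series, so those shares are given as descriptions and carry no test. All 7 were found by gene name among 18111 annotated genes with a read in either library, and they held 324 reads in replicate 1 and 628 in replicate 2. The series holds long-read RNA sequencing of adrenal glands from 14-day-old female B6CASTF1/J mice, hybrids of a B6 and a CAST parent, from The Jackson Laboratory. There was 1 group, with no treatment and no engineered allele in the labels, and 2 libraries labelled as biological replicates 1 and 2. The tissue sample of replicate 1 is named as 3 females and that of replicate 2 as 1 female, while the descriptions of both libraries name 3, so whether animals were pooled in replicate 2 is not settled by the labels.

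Long reads are meant to cover a transcript from end to end, so the exons joined on one molecule can be read together. A gene can make several such forms from one locus. Alternative first exons follow from different transcription starts and often change only the untranslated leader, alternative internal exons change the protein when they are coding, and alternative last exons change the carboxy terminus or the untranslated tail. Khk (ketohexokinase), Slc37a4 (the glucose-6-phosphate transporter of the endoplasmic reticulum), Fpgs (folylpolyglutamate synthase) and Fggy (a carbohydrate kinase that acts on ribulose) serve sugar and folate metabolism. Prlr is the prolactin receptor, Dpy19l1 belongs to a family of C-mannosyltransferases, and Ttc19 is a mitochondrial protein needed for respiratory complex III. The set therefore joins enzymes and transporters with a hormone receptor and a mitochondrial assembly factor.

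The libraries stood apart in markers of other tissues. Replicate 1 held 1065570 reads in annotated genes and replicate 2 held 946553. Summed over 14 hepatocyte markers, the level was 0.0501% of all annotated-gene reads in replicate 1 against 5.69% in replicate 2; all 14 were over 2-fold higher in replicate 2, and Tat and Hnf4a had no read in replicate 1. The 8 skeletal muscle markers summed to 0.00619% and 0.175%, with Myh1, Myh2 and Tnnt3 at 0 in replicate 1. The adrenal markers were present in both libraries and differed the other way: 9 cortex markers summed to 5.60% in replicate 1 and 2.49% in replicate 2, and 8 chromaffin cell markers to 1.31% and 0.508%. The 6 adipocyte markers, at 0.732% and 0.832%, had no gene over 2-fold apart, and 6 of 7 kidney tubule markers had no read in either library. The part of these other tissues in the differences described here was not tested. In bulk tissue, fewer cells of a type and less RNA per cell cannot be told apart.

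The sequences that separate the forms are shown first, from GENCODE M21 transcripts on mm10, 5′ to 3′ on the transcript strand. Khk has a pair of adjacent coding exons of 135 bases, known in the literature as 3a and 3c, which lie 199 bases apart on chromosome 5. The upstream copy is chr5:30926688-30926822 and the downstream copy is chr5:30927022-30927156, both on the plus strand. Capitals mark the positions at which the copies differ in an ungapped alignment:
Khk upstream copy: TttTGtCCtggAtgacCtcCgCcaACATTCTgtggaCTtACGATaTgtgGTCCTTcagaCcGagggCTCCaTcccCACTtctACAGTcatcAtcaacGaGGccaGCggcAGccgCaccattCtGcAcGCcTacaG
Khk downstream copy: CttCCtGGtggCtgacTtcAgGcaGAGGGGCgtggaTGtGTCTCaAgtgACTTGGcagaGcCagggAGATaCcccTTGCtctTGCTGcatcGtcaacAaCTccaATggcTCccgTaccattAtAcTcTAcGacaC
The copies share 73 of 135 bases (54.1%). Each copy has the length of 45 codons. The annotated coding sequence is 1029 bases with both copies and 894 with the downstream copy alone, and taking that copy out as well would leave 759, all multiples of 3.

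The Khk reads were sorted by the junction that follows chr5:30924855, the end of the exon before the pair. The 15 bases of that exon are in lower case and the 15 bases it was joined to are in capitals:
Khk to the upstream copy: tggccacgttgccgaTTTTGTCCTGGATGA
Khk to the downstream copy: tggccacgttgccgaCTTCCTGGTGGCTGA
Khk with both copies left out: tggccacgttgccgaGAACCTGCCAGATGT
The last of these joins the exon directly to the one that starts at chr5:30928443.

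Fpgs, on the minus strand of chromosome 2, has alternative first exons with different start codons, here in capitals. The upstream one, chr2:32703825-32703950, is the annotated coding part of the second exon of the upstream form, and the downstream one, chr2:32693989-32694126, is the coding part of the downstream first exon:
Fpgs upstream coding start: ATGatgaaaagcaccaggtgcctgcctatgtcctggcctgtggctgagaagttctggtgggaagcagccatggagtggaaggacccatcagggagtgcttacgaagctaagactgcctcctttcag
Fpgs downstream coding start: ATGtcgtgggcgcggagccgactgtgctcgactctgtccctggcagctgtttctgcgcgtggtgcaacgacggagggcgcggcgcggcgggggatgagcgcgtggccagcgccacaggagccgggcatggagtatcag
The upstream piece is 126 bases long and the downstream piece 138, and both join the exon that starts at chr2:32692721, so the annotated coding sequences differ at the amino terminus. The upstream start is that of Fpgs-208, annotated as a nonsense-mediated decay transcript. Fpgs-203 and Fpgs-207, which also hold it, are incomplete models.

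Ttc19, on the plus strand of chromosome 11, has a coding exon of 39 bases at chr11:62284131-62284169 that is kept or left out:
Ttc19 exon: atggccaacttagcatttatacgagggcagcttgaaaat
Its loss takes the annotated coding sequence from 1095 to 1056 bases.

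In Slc37a4, Fggy and Prlr the alternative first exons join a shared exon. The 15 last bases of each first exon are in capitals and the first 15 of the shared exon are in lower case:
Slc37a4 first exon ending at 44396991: ACCGCCTCCGTCCAGgacactgggttccct
Slc37a4 first exon ending at 44397446: ACCCACAGCCCCGCAgacactgggttccct
Slc37a4 first exon ending at 44397473: TACTGATGTCGCAGGgacactgggttccct
Slc37a4 proximal first exon, continuous across 44398268: TCTTGTCTCTCTCAGgacactgggttccct
Fggy upstream first exon ending at 95557591: TTTCATATTGGACAAgtagaggggaccatg
Fggy downstream first exon ending at 95579554: GAAGCAGAATCTAAGgtagaggggaccatg
Prlr first exon ending at 10177871: TTCTCTCCAGCAGAActaaagaacgcttct
Prlr first exon ending at 10224096: CAAGGCCTCCTCAAGctaaagaacgcttct
Prlr first exon ending at 10249649: TGACACCACAACCAGctaaagaacgcttct
These are on chromosomes 9, 4 and 15, all on the plus strand. In Slc37a4 the annotated coding sequence starts at chr9:44398474 and in Fggy at chr4:95585244, in the exon that all of these forms hold, so for both genes these first exons differ in the untranslated leader.

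Prlr and Dpy19l1 also differ at the 3′ end. The shared exon is in lower case and the base run that follows it is in capitals:
Prlr long form: actcatctgctagagAAGGGCAAGTCTGAA
Prlr short form: actcatctgctagagACTGGCTCTCCAAGC
Dpy19l1 with the last intron removed: gccagagacgcaccaGCAGATTAACCTCAG
Dpy19l1 with the last intron kept: gccagagacgcaccaGTAATGGCTTTACTG
The capitals of the last line are the start of the intron itself. Taken alone, the exons and junctions shown for Khk, Fpgs and Ttc19 and the last exons of Prlr differ in coding sequence, while the first exons of Slc37a4, Fggy and Prlr and the last intron of Dpy19l1 lie outside it. Whole annotated models of these genes can differ further: Fggy-201, with the downstream first exon, ends early and has 1161 coding bases against 1656 in Fggy-202.

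The reads of each gene fell on between 9 (Dpy19l1 and Ttc19) and 33 (Fggy) distinct splice chains over both libraries, most of them with few reads. For each gene the leading form is the first exon, internal exon or last exon with the largest difference in share between the libraries. Shares were taken over informative reads, those on multi-exon chains that could show the form, and carry exact 95% binomial intervals that cover counting error only. Levels are given as CPM, counts scaled to the reads in annotated genes.

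**Figure D1:**
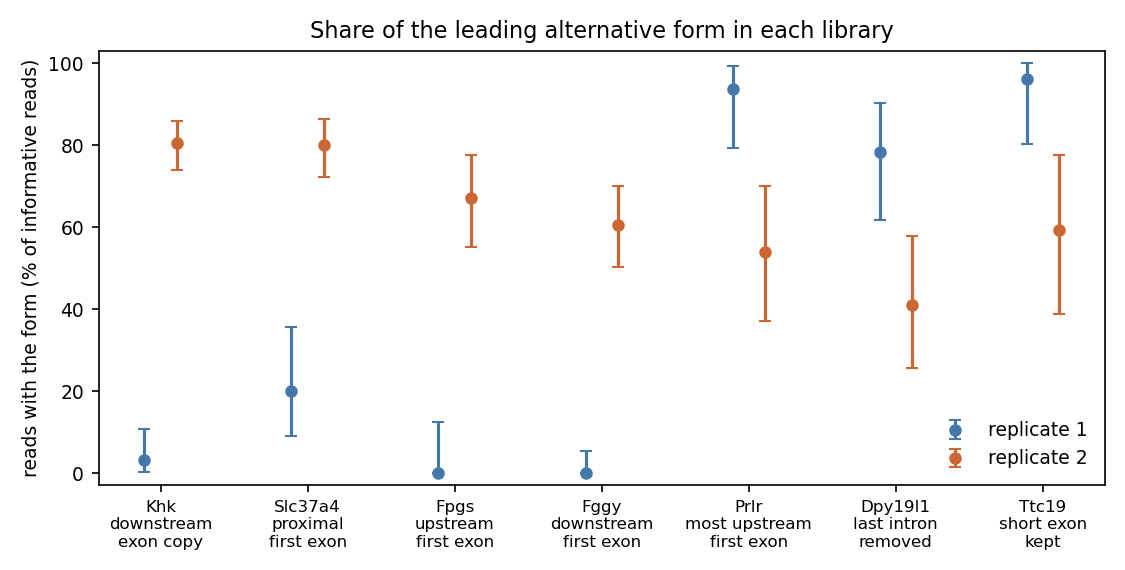
Share of the leading form of each gene among informative reads (vertical axis, percent) in replicate 1 and replicate 2; points are libraries and bars are exact 95% binomial intervals. The Khk, Slc37a4, Fpgs and Fggy forms were at 0 to 20.0% in replicate 1 and at 60.4 to 80.4% in replicate 2, and the Prlr, Dpy19l1 and Ttc19 forms were at 78.4% or more in replicate 1 and at 59.3% or less in replicate 2.

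Ketohexokinase phosphorylates fructose. Its product with exon 3c, KHK-C, is the high-affinity enzyme of liver, kidney and intestine, and its product with exon 3a, KHK-A, is found in many tissues. The downstream copy (3c) was on 2 of 64 reads in replicate 1 (3.13%, interval 0.381 to 10.8%) and on 148 of 184 in replicate 2 (80.4%, interval 74.0 to 85.9%), a mean of 41.8% ± 54.7 (SD, n = 2). Nearly all spliced Khk reads of replicate 1 thus lacked the exon that most reads of replicate 2 carried. Both copies were left out on 47 reads of replicate 1 (73.4%, interval 60.9 to 83.7%) and on 24 of replicate 2 (13.0%, interval 8.54 to 18.8%). The upstream copy (3a) alone was on 13 reads of replicate 1 (20.3%, interval 11.3 to 32.2%) and on 8 of replicate 2 (4.35%, interval 1.90 to 8.39%). Both copies sat on the same molecule in 5 reads, all in replicate 2. The most frequent form of replicate 1 was therefore neither the A nor the C form but the one that skips both, which GENCODE M21 lists as Khk-203 with an incomplete coding end. In GENCODE M21 the upstream copy alone is held by Khk-205, a model of 7 exons with an incomplete coding end, and the main chain with that copy, with 12 and 7 reads, runs 1 exon further and was classed as a new combination of annotated junctions.

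**Figure D2:**
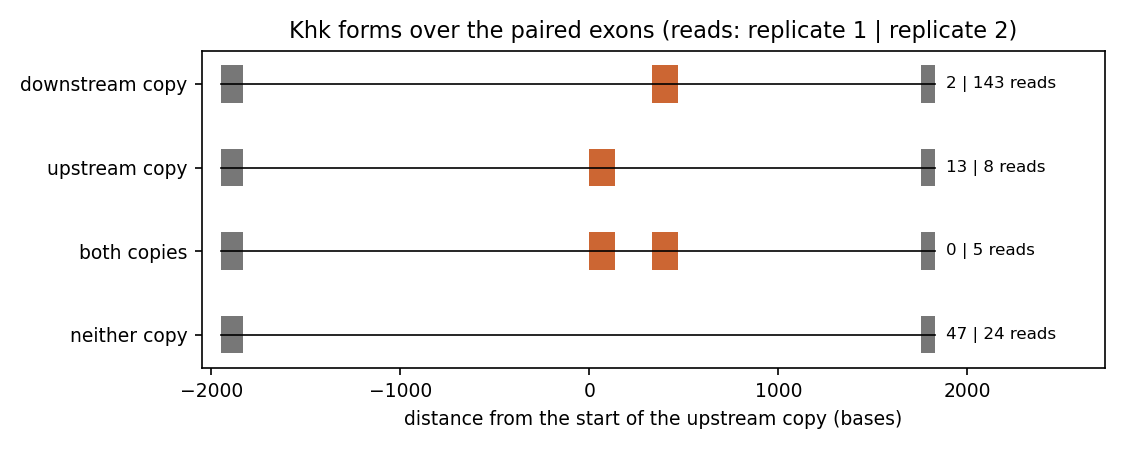
Khk forms over the paired exons, drawn to scale against the distance in bases from the start of the upstream copy; grey boxes are the flanking exons, orange boxes the copies, and the numbers are reads in replicate 1 and replicate 2. The form with the downstream copy alone had 2 reads in replicate 1 and 143 in replicate 2, and the form with neither copy had 47 and 24.

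The whole gene differed in the same direction as its downstream-copy form. Khk had 67 reads in replicate 1 (62.9 CPM) and 191 in replicate 2 (202 CPM), a CPM ratio of 3.21 (interval 2.42 to 4.31). Reads with the downstream copy stood at 1.88 and 156 CPM, and those without it at 58.2 and 38.0 CPM, a ratio of 0.654 (interval 0.421 to 1.00). The hepatocyte markers were higher in replicate 2 as given above, and their part in the Khk result was not tested.

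Slc37a4 brings glucose 6-phosphate into the endoplasmic reticulum, where glucose-6-phosphatase acts on it. The proximal first exon, chr9:44398176-44398621, began 8 of 40 reads in replicate 1 (20.0%, interval 9.05 to 35.6%) and 108 of 135 in replicate 2 (80.0%, interval 72.3 to 86.4%), a mean of 50% ± 42.4 (SD, n = 2). With this scaling, reads from all other first exons together were level, at 32 (30 CPM) and 27 (28.5 CPM), a ratio of 0.95 (interval 0.547 to 1.64). Those from the proximal exon stood at 7.51 and 114 CPM, a ratio of 15.2 (interval 7.44 to 36.1). Among the distal exons the one ending at 44397473 had 13 and 10 reads, the one ending at 44397446 had 13 and 7, and the one ending at 44396991 had 5 in each library. The proximal exon contains the shared exon whole, so a read of a distal form that stopped inside the shared exon would have the same junctions, and the deposited models do not tell these cases apart. The last exon at 44402302 was on 40 of 40 and 134 of 135 reads. Of the internal exons, chr9:44399249-44399481 was on 37 of 40 and 131 of 133 reads, and its longer version from 44399218 on 3 of 40 and 1 of 133. A coding exon of 63 bases, chr9:44401707-44401769, was on none of 40 reads in replicate 1, which allows a share of up to 7.5%, and on 2 of 134 in replicate 2. The whole gene had 41 and 140 reads, a ratio of 3.84 (interval 2.70 to 5.59).

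Folylpolyglutamate synthase adds glutamates to folates and keeps them in the cell. In the mouse an upstream promoter of the gene is known from liver and kidney and a downstream one from dividing cells. The upstream first exon, chr2:32704086-32704145, began none of 28 reads in replicate 1, which allows a share of up to 10.7%, and 49 of 73 in replicate 2 (67.1%, interval 55.1 to 77.7%), a mean of 33.6% ± 47.5 (SD, n = 2). The downstream first exon, chr2:32693989-32694185, began 27 of 28 reads in replicate 1 (96.4%) and 22 of 73 in replicate 2 (30.1%). In CPM the upstream form was at least 18.4-fold higher in replicate 2, against a floor of 3 reads in replicate 1 (lower limit of the exact interval 14.4), and all other forms stood at 26.3 and 25.4, a ratio of 0.965 (interval 0.535 to 1.73). The 2 forms were thus used side by side in replicate 2 and the upstream one was not seen in replicate 1. The main upstream chain, 39 reads of 16 exons, joins annotated junctions that no single GENCODE M21 transcript holds together; with annotated chains only, the upstream share of replicate 2 was 0%. Fpgs as a whole had 34 and 77 reads, a ratio of 2.55 (interval 1.68 to 3.94).

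Fggy spans 369433 bases of chromosome 4. Its downstream first exon, chr4:95579421-95579554, began none of 66 reads in replicate 1, which allows a share of up to 4.55%, and 61 of 101 in replicate 2 (60.4%, interval 50.2 to 70.0%), a mean of 30.2% ± 42.7 (SD, n = 2). The upstream first exon, chr4:95557507-95557591, began 58 reads in replicate 1 (87.9%) and 36 in replicate 2 (35.6%). In CPM the downstream-exon form was at least 22.9-fold higher in replicate 2 by the same floor (lower limit of the exact interval 18.1), and the other forms stood at 61.9 and 42.3 CPM, a ratio of 0.682 (interval 0.449 to 1.03). A first exon further down, chr4:95738408-95738481, began 4 and 3 reads. The full chain from the downstream exon, 52 reads, is again a combination absent from GENCODE M21, and with annotated chains only its share in replicate 2 was 3.45%. The exons at chr4:95812108-95812169 and chr4:95821978-95822125 were kept on most reads of both libraries, 59 of 65 and 95 of 101 for the former and 57 of 64 and 91 of 100 for the latter; these shares were close in the libraries beside those of the first exons. The whole gene had 68 and 107 reads, a ratio of 1.77 (interval 1.30 to 2.44).

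**Figure D3:**
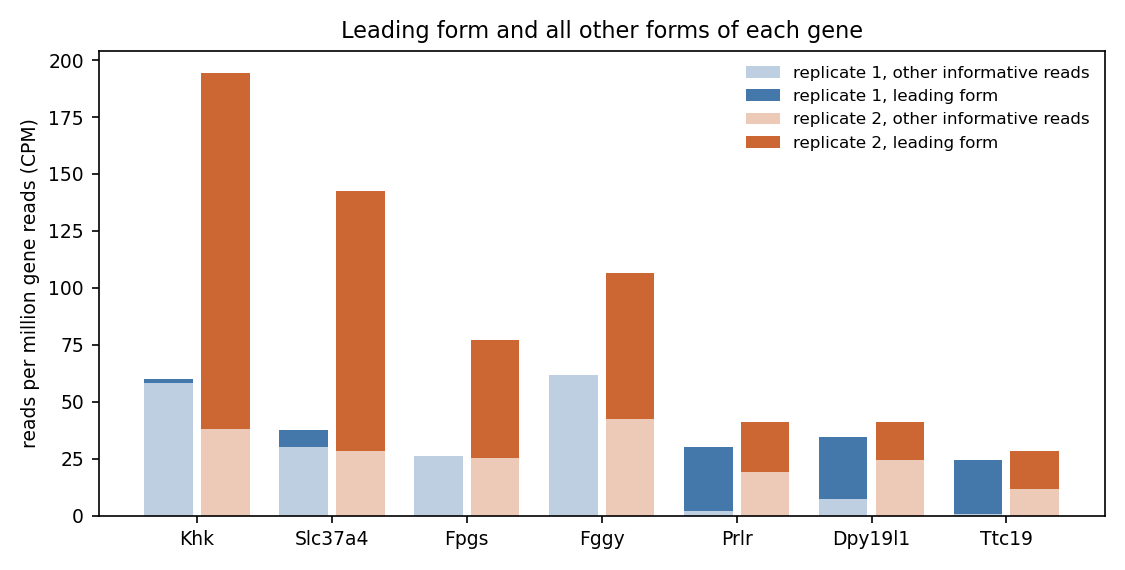
Level of the leading form (dark) and of all other informative reads (pale) of each gene in replicate 1 (blue) and replicate 2 (orange), as stacked bars in CPM. The pale parts of Khk, Slc37a4, Fpgs and Fggy lie between 26.3 and 61.9 CPM in replicate 1 and between 25.4 and 42.3 in replicate 2, under dark parts of 51.8 to 156 CPM in replicate 2.

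The prolactin receptor is a single-pass cytokine receptor. Its long form carries a cytoplasmic tail that signals through Jak2 and Stat5, and its short forms end soon after the membrane with a different tail. The most upstream first exon, chr15:10177646-10177871, began 30 of 32 reads in replicate 1 (93.8%, interval 79.2 to 99.2%) and 21 of 39 in replicate 2 (53.8%, interval 37.2 to 69.9%), a mean of 73.8% ± 28.2 (SD, n = 2). A further pair of first exons had reads in replicate 2 alone: 13 of 39 (33.3%) began at chr15:10223986-10224096 and 5 (12.8%) at chr15:10249560-10249649. None of the 32 reads of replicate 1 began at either, which allows a share of up to 9.38% for each.

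The last exon of Prlr differed as well. The long-form exon, which starts at 10328281 and ends the 1824-base coding sequence of Prlr-202, was on 17 of 32 reads in replicate 1 (53.1%, interval 34.7 to 70.9%) and on 6 of 39 in replicate 2 (15.4%, interval 5.86 to 30.5%). The short-form exon, which starts at 10346410 and ends the 930-base coding sequence of Prlr-205, was on 13 (40.6%, interval 23.7 to 59.4%) and on 31 (79.5%, interval 63.5 to 90.7%). As whole transcripts, Prlr-202 measures 9900 bases and Prlr-205 3836, and the part of transcript length in these shares was not tested. First and last exons can be paired on single reads. All 13 reads from the exon at 10224096 and 4 of the 5 from the exon at 10249649 ended in the short form. Among reads from the upstream exon at 10177871, the long and short forms had 15 and 13 reads in replicate 1 and 5 and 14 in replicate 2. The short form was thus the larger part of replicate 2 from each of the 3 first exons. The gene as a whole differed less, with 37 and 41 reads and a ratio of 1.25 (interval 0.780 to 2.00).

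Dpy19l1, on the minus strand of chromosome 9, differed in its 3′ untranslated tail. The last intron was removed on 29 of 37 reads in replicate 1 (78.4%, interval 61.8 to 90.2%) and on 16 of 39 in replicate 2 (41.0%, interval 25.6 to 57.9%), a mean of 59.7% ± 26.4 (SD, n = 2). The remaining reads kept it, 8 in replicate 1 and 23 in replicate 2. Both annotated forms, Dpy19l1-203 and Dpy19l1-206, have a coding sequence of 2238 bases, and the longer last exon measures 2621 bases against 1209. The gene total was level at 43.2 and 43.3 CPM (ratio 1.00, interval 0.642 to 1.56), though its log2 ratio was 0.59 with spike-in scaling. The kept-intron form stood at 7.51 and 24.3 CPM, a ratio of 3.24 (interval 1.40 to 8.37). The removed-intron form stood at 27.2 and 16.9 CPM, a ratio of 0.621 (interval 0.315 to 1.18). Both intervals cover counting error only, for forms picked on this contrast, and are not read as a test.

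In Ttc19 the 39-base exon was kept on 25 of 26 reads in replicate 1 (96.2%, interval 80.4 to 99.9%) and on 16 of 27 in replicate 2 (59.3%, interval 38.8 to 77.6%), a mean of 77.7% ± 26.1 (SD, n = 2). It was skipped by a junction across it on 1 and 10 reads. The last exon that starts at 62314010 was on 22 of 26 and 19 of 28 reads, and the one at 62315877 on 2 and 8. The start at 62315877 is not that of an annotated last exon. It lies inside the exon from 62314010, and both end at 62316426 in the models. In replicate 2 the reads without the short exon used the start at 62314010 on 9 reads and that at 62315877 on 2, so skipping was seen with both last splice sites. The whole gene had 31 reads in each library, a ratio of 1.13 (interval 0.662 to 1.91). With 26 to 39 informative reads a library in Prlr, Dpy19l1 and Ttc19, these intervals are wide.

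The isoform distance sums, over the splice chains of a gene, the share gained by the chains that are larger in replicate 2, in percentage points. It was 80.6 for Khk, 78.1 for Fpgs, 65.3 for Fggy, 64.4 for Slc37a4, 58.5 for Prlr, 56.6 for Ttc19 and 48.0 for Dpy19l1. All 7 passed the minimum of 20 spliced reads in each library, and all 7 were at least 30 points apart, as were 401 of 4972 genes (8.07%). With annotated chains only, 4 of the 7 passed the minimum and 3 of these were at least 30 points apart, beside 26 of 2792 genes. Restricted to the first exon, 4 of the 7 were at least 30 points apart (Fpgs 69.9, Slc37a4 61.5, Fggy 60.4 and Prlr 46.2), against 31 of 3874 genes (0.8%), while Ttc19, Dpy19l1 and Khk were at 3.57 points or less. The genes were picked on this contrast, so nothing is read from these counts. The median over all genes was 8.72 points for chains and 2.86 for first exons, part of which is counting error at these depths.

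**Figure D4:**
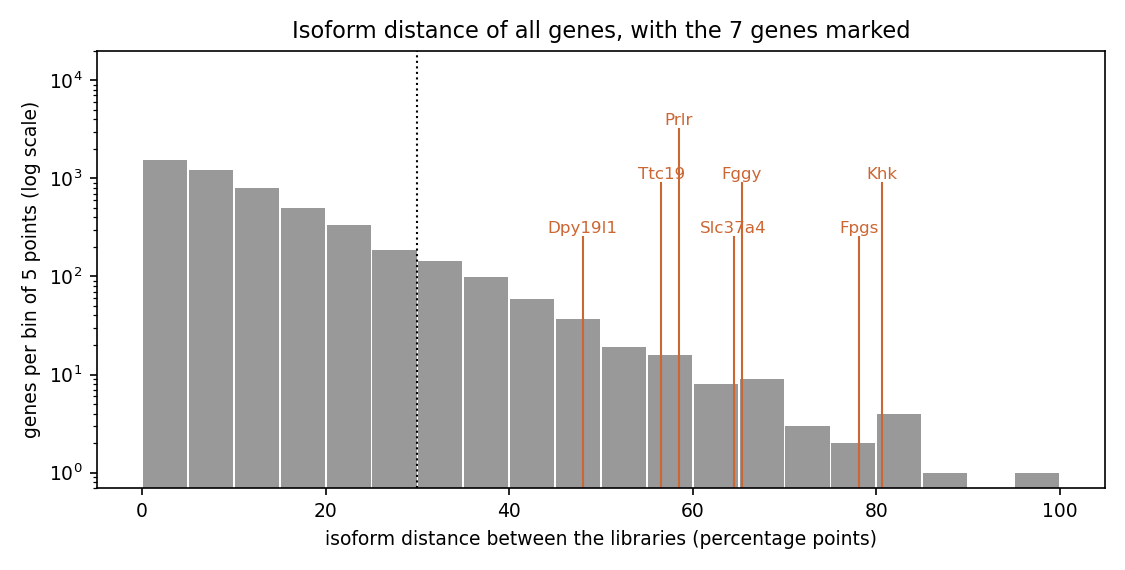
Number of genes (log scale) by isoform distance between the libraries in percentage points, in bins of 5 points, for 4972 genes; orange lines mark the 7 genes and the dotted line the 30-point rule. The 7 genes lie between 48.0 and 80.6 points, to the right of the median of 8.72.

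Promoter windows from RefSeq (GRCm38.p6, 250 bases before to 50 after each start, 12 windows for the 7 genes) were searched on both strands for letters of factors known from liver promoters and for a TATA box. The letters were TTAATNATT for HNF1, CAAAGNNCA for HNF4 and TATAAA, picked after these sequences had been seen, and no pair of matches overlapped. The window of the RefSeq start of Slc37a4 at 44398354 held an HNF1 match 55 bases and a TATA match 32 bases before the start; the 30 bases at chr9:44398299-44398328, with matches in capitals, are shown because they hold both matches. They lie within the exon that the distal forms hold too, downstream of 44398268, so they do not mark the proximal form alone:
Slc37a4 start at 44398354: TTAATGATTgtccagaaggcggcTATAAAg
The window of the Fggy downstream start held an HNF4 match that begins at base 9 of the exon, at chr4:95579419-95579448:
Fggy downstream start: cagtagagttCAAAGATCActgttaaaaga
The windows of the distal Slc37a4 starts and of the upstream Fggy start held none of the letters. Of the other windows, that of Khk held 1 HNF4 match and that of the Prlr start at 10293651 held 1 HNF1 match. This Prlr start is that of the shared exon, not of a first exon described above. The upstream first exon of Fpgs and the Prlr first exon ending at 10249649 had no window, so their promoters were not searched. Among all 32851 windows of this length, 1.47% held the HNF1 letters, 6.36% the HNF4 letters and 13.6% the TATA letters. A match describes letters and not a bound site.

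The genes that work beside each of the 7 were then compared, calling a gene higher or lower when its CPM, with 0.5 reads added, lay over 2-fold apart and it had at least 20 reads over both libraries. This rule has no test behind it. The minimum is on summed reads, so a gene can pass through only the library where it is high. Many list genes called higher below had under 20 reads in replicate 1, among them Gckr, Slc2a2, Fbp1, Gys2, Ftcd, Gldc, Xylb and Igfals. Over all 9211 genes, 671 were higher in replicate 2 (7.28%) and 671 lower (7.28%), with a median log2 ratio of -0.28. Other scalings shift every log2 ratio up, those of the single forms above included, by 0.25 (edgeR TMM), 0.24 (DESeq2) or 0.59 (ERCC spike-ins). They turn the split of genes to 872 and 334, 871 and 336, or 1407 and 133. Of the 7 genes, 3 (Khk, Slc37a4 and Fpgs) were called higher and none lower. Fggy, at a log2 ratio of 0.82, was also called higher with the other scalings, at 1.07 (TMM), 1.07 (DESeq2) and 1.41 (spike-ins).

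Around Khk, 6 of 10 fructose and polyol genes were higher in replicate 2 and none lower, with a median log2 ratio of 1.89. Sord, which makes fructose from sorbitol, had 52 and 190, and Gckr, a regulatory protein that senses fructose 1-phosphate, had none and 58. Slc2a2, the glucose transporter of hepatocytes, had 1 and 48. Tkfc, which phosphorylates glyceraldehyde, had 11 and 41 reads, and Pfkfb1 had 9 and 28. Of these higher genes, only Sord had 20 or more reads in replicate 1, so the others passed the minimum through replicate 2. Aldoa, the widespread aldolase, was within 2-fold at 2659 and 1906 reads, as were Akr1b3 (132 and 64) and Mlxipl (68 and 72). Slc2a5, the fructose transporter, had no read in either library.

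Around Slc37a4, 6 of 13 genes were higher and 1 lower, with a median log2 ratio of 0.17. G6pc, the liver glucose-6-phosphatase that works with the transporter, had 12 and 116 reads, while the widespread G6pc3 was within 2-fold at 62 and 33. Fbp1, an enzyme of gluconeogenesis, had 6 and 507, Pck1 had 369 and 682, and Hsd11b1, which regenerates glucocorticoid, had 48 and 193. Pygl, the liver glycogen phosphorylase, had 67 and 193 and Gys2, the liver glycogen synthase, had 1 and 20. Pcx (500 and 491) and Gpi1 (457 and 394) were within 2-fold. Slc37a2 was lower, at 48 and 17 reads, but not with spike-in scaling.

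Around Fpgs, 4 of 20 folate genes were higher, 1 lower and 15 within 2-fold, with a median log2 ratio of -0.20. The higher genes were Aldh1l1 (136 and 313 reads), Gldc of the glycine cleavage system (3 and 147), Ftcd of histidine breakdown (2 and 132) and Mthfs (13 and 27). Shmt1 (161 and 177 reads), Mthfd1 (113 and 155) and Gart of purine synthesis (119 and 93) were within 2-fold. Mthfd2 was lower at 58 and 17, but not with spike-in scaling, with which 8 genes, Mthfd1 among them, were called higher in place of 4.

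Around Fggy, 4 of 14 sugar kinases and pentose enzymes were higher and none lower, with a median log2 ratio of -0.06. They were Xylb, the xylulose kinase (2 and 29 reads), Gk, the glycerol kinase (73 and 164), Galk1, the galactokinase (106 and 190), and Dcxr, which makes xylitol from xylulose (36 and 67). Taldo1 (893 and 608) and Tkt (204 and 127) of the pentose phosphate pathway were within 2-fold.

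Around Prlr, 4 of 12 genes were higher and none lower, with a median log2 ratio of 0.12. Ghr, the growth hormone receptor, had 30 and 156 reads, Igf1, its secreted target, had 5 and 156, and Igfals, which carries Igf1 in blood, had 1 and 90. Socs2, an inhibitor of this signalling, had 22 and 60. The transducers Stat5b (165 and 121), Stat3 (57 and 60), Stat5a (69 and 40) and Jak2 (11 and 10) were within 2-fold, and Prl itself had no read in either library.

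Around Dpy19l1, 11 of 12 genes of C-mannosylation and dolichol sugars were within 2-fold, with a median log2 ratio of -0.16. Stt3a (271 and 188 reads), Dpm1 (169 and 122) and Stt3b (107 and 121), all of the endoplasmic reticulum, were among them. Alg2, a mannosyltransferase, was lower at 242 and 86 reads, though not with spike-in scaling. Around Ttc19, all 15 complex III subunits and assembly factors were within 2-fold, with a median log2 ratio of -0.01, among them Uqcrc1 (2189 and 2368 reads), Uqcrq (1716 and 1473), Cyc1 (1311 and 1300) and Uqcrfs1 (977 and 1027). Genes called higher numbered 0 of 12 around Dpy19l1 and 0 of 15 around Ttc19. Both counts are near the share of 7.28% over all genes, so no split among the 7 genes is read from them. The hepatocyte markers were over 2-fold higher in 14 of 14, in the same direction as the list genes called higher, and their part in those calls was not tested. As whole lists, only the fructose list had a median log2 ratio above 1, beside 6.94 for the hepatocyte markers. Genes that passed the minimum of reads only through replicate 2 enter both medians.

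**Figure D5:**
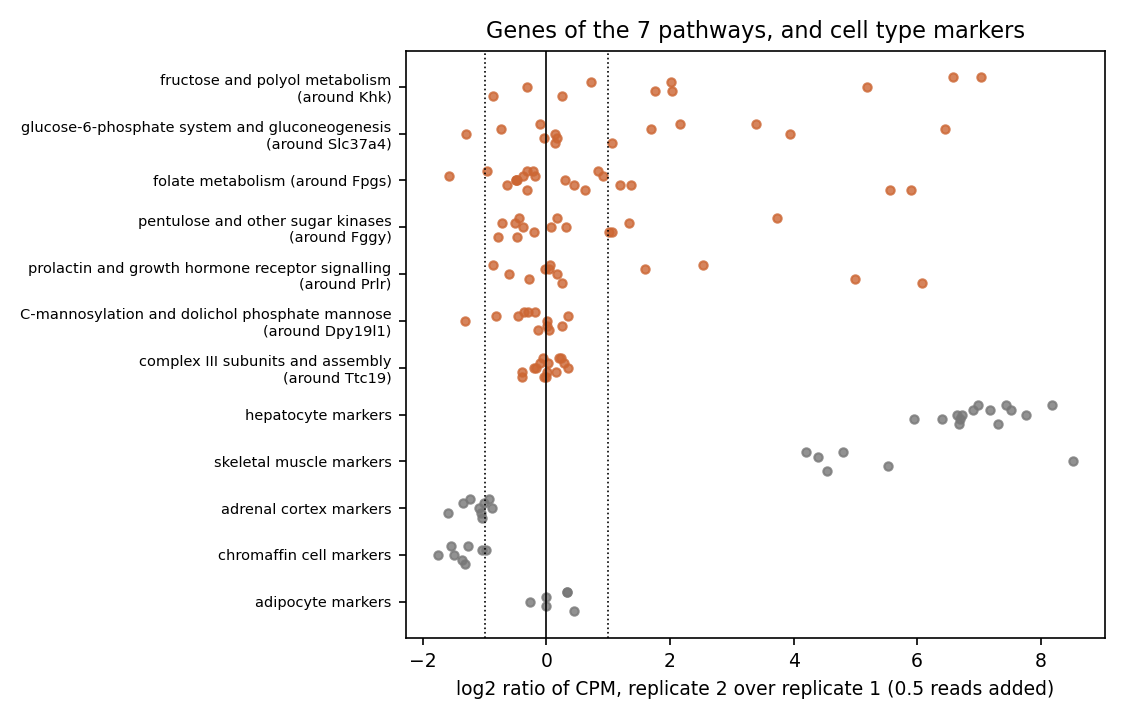
Log2 ratio of CPM in replicate 2 over replicate 1 (horizontal axis, 0.5 reads added) for genes with at least 20 reads in the 7 pathway lists (orange) and for cell type markers (grey); each point is a gene and dotted lines mark 2-fold. The fructose genes reach from Akr1b3 at -0.87 to Gckr at 7.04, the complex III genes lie within 2-fold, and all hepatocyte markers lie above 5.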

How the data were processed

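Long-read libraries of 2 adrenal samples were quantified by the submitters with TALON-style transcript models, each a chain of exons with a class and a read count; the assembly is mm10, per the labels, while for the aligner, the model caller and their versions nothing is given in those sources. The deposited tables hold raw read counts per transcript model and library, not normalized by the authors. Starts and ends of annotated models are those of the annotation, so only splice junctions were read as measured. Here exon chains were taken from each library's deposited annotation, and reads of multi-exon chains classed as known or as new combinations (NIC) or new splice sites (NNC) in either library were pooled by gene and junction chain. Chains that only match part of an annotated transcript (ISM), unspliced reads, spike-ins and unannotated loci were left out of the shares. A form was led by the largest share difference with at least 10 informative reads in each library. Shares carry exact Clopper-Pearson intervals at the 95% level and ratios exact conditional binomial intervals (SciPy 1.17.1), for counting error only; reads are not marked by molecular identifiers that these tables record. A count of 0 was given an upper limit of 3 reads. CPM used all reads in annotated genes (1065570 and 946553). Scaling alternatives used edgeR 4.0.16 and DESeq2 1.42.0. No p-value was computed, because the group has 2 libraries and the contrast between them chose the genes. The counting steps were tested on simulated data. The 7 genes, the pathway lists and the markers were chosen with earlier results of these data known. Named list genes were the up to 4 of highest mean CPM and up to 4 of those over 2-fold apart by summed reads, and some further list genes were named for their role after their values were seen. Sequences came from GENCODE M21 transcripts and RefSeq promoter windows; protein sequences were not used here. Some list genes that enter the counts are not reported here by name.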

Additional observations from a re-analysis of the deposited data

How the results depend on the processing

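Of 70 recomputed shares of the leading forms, 61 stayed inside their interval. Merging splice sites within 6 bases changed none of them. Letting each library's own class decide changed only Ttc19 in replicate 1, so these settings tested little. With annotated chains only, the shares were 86.1% (Khk) and 90% (Slc37a4), 0% (Fpgs), 3.45% (Fggy) and 20.0% (Prlr) in replicate 2, and 100% for Prlr and Ttc19 in replicate 1; the Fpgs and Fggy values follow from chains that the annotation does not hold whole. With chains of at least 5 summed reads, Prlr and Ttc19 were at 100% in replicate 1. With either library left out, each of the 7 means becomes the other library's share, which by construction lies within 1 SD. Of 35 log2 ratios of whole genes, 32 stayed inside their interval, and spike-in scaling gave 2.26 for Khk, 2.52 for Slc37a4 and 1.41 for Fggy. Genes over 2-fold higher numbered 1407 with spike-in scaling, 2855 with no minimum of reads and 272 with at least 100; genes lower numbered 334 (TMM), 336 (DESeq2), 133 (spike-ins), 3699 and 162. Genes at least 30 points apart numbered 960 and 50 with minimums of 10 and 50 reads, 26 with annotated chains only and 39 with chains of at least 5 reads. Of 70 list counts, 59 stayed within 1.5 times. No paired analysis was possible because there is 1 group. With 26 to 184 spliced reads per gene and library, differences of a few percentage points were not detectable.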

Other observations

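Outside the 7 genes, the 5 genes with the largest isoform distance among those with at least 50 spliced reads in each library were Insig2 at 66.7 points (94 and 141 reads), Tpm2 at 66.3 (70 and 101), Tpm1 at 61.4 (54 and 230), C4b at 57.3 (56 and 69) and Ubap2l at 55.8 (98 and 89). Insig2 is a sterol regulator of the endoplasmic reticulum, Tpm1 and Tpm2 are tropomyosins of muscle and other cells, and C4b is a complement protein. The hepatocyte and skeletal muscle markers were higher in replicate 2 in all genes tested, and their part in these distances was not tested.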
